A study of Homo sapiens with 18 samples.

Results

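The lysosome and autophagy genes described here are 38 genes picked by symbol from the 58735 genes in the count table. They cover lysosomal proteases (10 genes), glycosidases (7), genes for lipid handling (5), lysosomal membrane proteins (6), the proton pump (3), the MiT/TFE transcription factors (3) and parts of the autophagosome (4). All 38 were found. Of these, 37 had enough counts to be tested, among 16129 genes tested in all, and CLN3, a lysosomal membrane protein, did not. The 38 genes and the other gene lists used below were chosen with earlier results of these data known. Shares of a list set beside those of all genes are therefore descriptions and no test of the list.

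The 18 libraries came from podocytes of the human line PODO/TERT256, which telomerase has made immortal, grown on 3D hemispheres with a smooth or a fractal surface. On each surface 3 libraries came from control cells, 3 from cells exposed to cytokines (TNF-α and IL-6), and 3 from cells kept with macrophages made from THP-1 cells, a monocytic line from a human leukaemia. Every group is thus the same podocyte line. Doses, exposure times, whether macrophages were removed before lysis, and whether the replicates were separate cultures are not given in the sources used here, so the p-values measure the spread between these libraries, which may be technical. All libraries were made from poly-A RNA without keeping strand.

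Lysosomes are acidified by a proton pump, the v-ATPase, and hold hydrolases that break down protein, sugar chains and lipid delivered by endocytosis or by autophagy. In autophagy, small ubiquitin-like proteins are attached to a growing membrane that encloses cargo and then fuses with the lysosome. TFEB, TFE3 and MITF are transcription factors held in the cytoplasm by mTORC1 signalling. Once released, they bind a short element, known as the CLEAR element, near many lysosomal genes. Podocytes are long-lived cells with a high basal level of autophagy, and loss of lysosomal enzymes such as alpha-galactosidase A (GLA, the Fabry disease gene) harms them.

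Library totals ran from 11488204 to 21264180 counts. Fractal THP-1 replicate 3 and smooth cytokines replicate 2 stood apart from their groups, with 0.847% and 8.09% of counts on mitochondrial genes against 3.86% to 4.63% in the other 16 libraries. Values without them are given for several of the results that rest on them. Among podocyte markers, NPHS1 had 6 counts in all libraries together and WT1 had 37, whereas SYNPO, CD2AP, ACTN4 and KIRREL1 were present in all 18. The sum of 22 monocyte and macrophage markers was 3.25 to 7.92 CPM (each library's counts scaled to 1000000 after TMM) over the 12 control and cytokine libraries. It was 67.1 to 72.4 CPM in the smooth THP-1 libraries, where 19 of the 22 had a count and MPEG1, C1QB and MNDA had none. In the fractal THP-1 libraries it was 30.2 to 35.8 CPM, with 18 of 22 detected and C1QA also at 0. TYROBP, a signalling adaptor of myeloid cells, had no count outside the THP-1 groups. Among other cell types of the kidney, the summed markers of parietal epithelium ran from 1294 to 1953 CPM, of mesangium from 21.3 to 57.6 CPM and of endothelium from 5.90 to 24.4 CPM over the 18 libraries. In these bulk libraries, fewer cells of a type and less RNA per cell cannot be told apart.

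The members together took 0.507% ± 0.0048 of all counts in the smooth controls and 0.472% ± 0.0026 in the fractal controls (mean ± SD, n = 3 here and throughout). With cytokines the share was 0.603% ± 0.027 on the smooth and 0.595% ± 0.017 on the fractal surface. With THP-1 macrophages it was 0.703% ± 0.0093 and 0.791% ± 0.056, the latter from 0.753% to 0.855%. PSAP and CTSB held the most counts among the members, so the share follows these 2 genes more than the others. Their means went from 839 and 814 CPM in the fractal controls to 2350 and 1638 CPM with THP-1, or 1949 and 1731 CPM without fractal THP-1 replicate 3. Levels per kilobase of exon were led by PSAP, the precursor of the saposins that help glycosidases act on sphingolipids, at 337 CPM per kilobase in the smooth controls. CD63, a tetraspanin of late endosomes, followed at 151 and the cysteine protease CTSB at 121. At the low end stood CTSH at 0.561, CTSS at 0.553, MAP1LC3C at 0.032 and CLN3 at 0.022 CPM per kilobase. PSAP was also at the top in the fractal THP-1 libraries, at 726 CPM per kilobase, whereas MAP1LC3C moved from rank 37 of 38 to rank 29 and GABARAPL1, a small ubiquitin-like protein of the autophagosome, from rank 19 to rank 12.

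The promoter sequences of 5 members are shown because they hold the core of the CLEAR element, TCACGTGA, and because their genes answered the treatments differently. RefSeq's table (build GRCh38.p14) held 29 of the 38 members. It gives 1 or more promoters per gene, each of 300 bases from 250 before an annotated start to 50 after it, and the 29 members had 42. The palindrome CACGTG, which lies inside TCACGTGA and reads alike on both strands, was in 10 of these 42 promoters (23.81%), against 2548 of all 35116 (7.26%). By gene, 9 of 29 members (31.03%) and 2396 of all 27305 genes (8.77%) had it in at least 1 promoter. TCACGTGA was in 7 of the 42 promoters (16.67%), against 344 of all 35116 (0.98%). The 6 member genes that had it (20.69% of 29, against 321 or 1.18% of all genes) were CTSA, GAA, LAMP1, CLN3, MCOLN1 and ATP6V0D1. Below are the 250 bases before the start, 5′ to 3′ on the gene's own strand, with every CACGTG in capitals.
CTSA, cathepsin A (chr20:45891085-45891334, plus strand): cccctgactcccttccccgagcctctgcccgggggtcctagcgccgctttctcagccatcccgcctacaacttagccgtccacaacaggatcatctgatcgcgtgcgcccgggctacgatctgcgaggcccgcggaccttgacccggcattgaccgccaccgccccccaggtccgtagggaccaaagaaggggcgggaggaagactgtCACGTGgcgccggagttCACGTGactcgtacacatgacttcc
GAA, acid alpha-glucosidase (chr17:80101331-80101580, plus strand): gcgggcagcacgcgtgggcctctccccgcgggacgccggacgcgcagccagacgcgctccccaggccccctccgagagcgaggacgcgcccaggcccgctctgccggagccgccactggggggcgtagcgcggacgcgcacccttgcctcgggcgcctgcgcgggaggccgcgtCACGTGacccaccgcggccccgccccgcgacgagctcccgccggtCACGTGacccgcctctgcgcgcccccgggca
LAMP1, lysosomal membrane glycoprotein (chr13:113296989-113297238, plus strand): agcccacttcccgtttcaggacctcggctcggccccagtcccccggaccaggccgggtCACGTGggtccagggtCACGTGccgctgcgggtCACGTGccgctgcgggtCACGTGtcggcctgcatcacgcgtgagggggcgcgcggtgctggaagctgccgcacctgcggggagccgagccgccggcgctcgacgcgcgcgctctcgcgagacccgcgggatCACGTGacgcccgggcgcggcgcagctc
MCOLN1, lysosomal calcium channel (chr19:7522374-7522623, plus strand): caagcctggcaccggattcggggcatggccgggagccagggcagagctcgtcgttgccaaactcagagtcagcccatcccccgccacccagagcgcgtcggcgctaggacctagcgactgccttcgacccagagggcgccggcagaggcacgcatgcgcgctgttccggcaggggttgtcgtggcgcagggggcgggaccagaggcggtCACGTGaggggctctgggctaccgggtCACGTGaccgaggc
ATP6V0D1, proton pump subunit (chr16:67481158-67481407, minus strand): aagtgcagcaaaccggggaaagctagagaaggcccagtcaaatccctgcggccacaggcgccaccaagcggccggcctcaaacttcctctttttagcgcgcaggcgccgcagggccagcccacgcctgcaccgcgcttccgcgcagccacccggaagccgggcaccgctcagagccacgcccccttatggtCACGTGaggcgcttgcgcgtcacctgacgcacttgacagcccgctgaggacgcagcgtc
Counted from the start, the motif begins at -42 and -25 in CTSA, at -76 and -31 in GAA, at -41 and -14 in MCOLN1 and at -59 in ATP6V0D1. LAMP1 holds it at -192, -176, -159, -142 and -28, and a further copy at -1 that runs across the start. The windows of GABARAPL1 and MAP1LC3C hold none of these letters. A match is a description of the letters and not a measured binding site.

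Exposure to THP-1-derived macrophages came with higher levels of many of these genes on both surfaces. On the smooth surface 18 of the 37 tested members rose (48.6%) and 2 fell (5.41%), where 17.3% of all genes tested rose and 17.7% fell. On the fractal surface 23 rose (62.2%) and 2 fell (5.41%), where 25% of all genes rose and 25.5% fell. The median log2 fold change of the members was 0.316 on the smooth and 0.374 on the fractal surface, beside 0.015 and 0.041 over all genes tested. MAP1LC3C is among the risers and passed the filter on low counts only through the THP-1 libraries. The summed macrophage markers were higher in the same libraries. Other marker sums moved there too. On the smooth surface the endothelial sum went from a mean of 10.9 to 23.97 CPM, the parietal sum from 1345 to 1910 CPM, the mesangial sum from 35.5 to 23.3 CPM and the podocyte sum from 1788 to 1815 CPM. For the fractal surface these were 9.76 to 17.3, 1326 to 1666, 42.3 to 27.9 and 1800 to 1463 CPM. Genes within a list went different ways there, so a sum does not stand for a cell type. Endothelial PECAM1 went from 0.317 to 10.5 CPM while CDH5 went from 6.76 to 5.94 and KDR from 1.87 to 0.486 CPM. Parietal PAX8 went from 283 to 871 CPM and CDH6 from 598 to 299 CPM. Podocyte ACTN4 went from 1228 to 756 CPM and KIRREL1 from 277 to 431 CPM. The part of these marker shifts in the results was not tested.

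**Figure D1:**
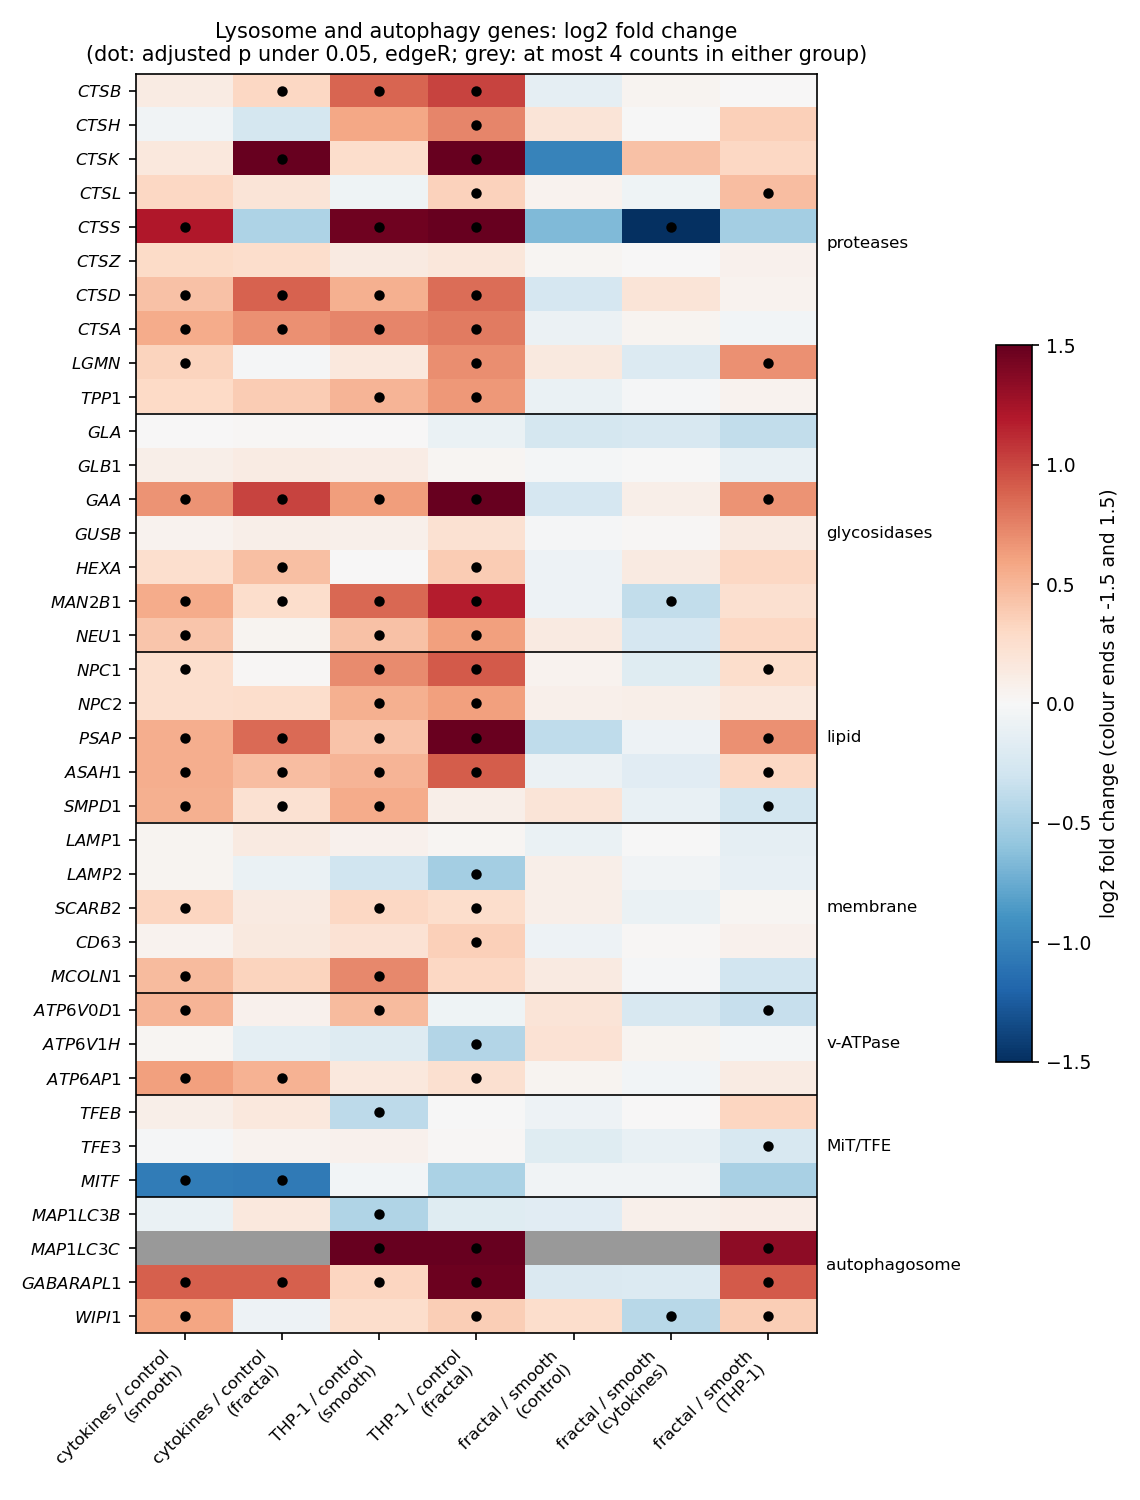
Log2 fold change of the 37 tested members (rows, grouped by role) in 7 comparisons (columns). Red is higher in the condition named before the slash, a dot marks an adjusted p under 0.05, and grey marks MAP1LC3C where neither group has more than 4 counts. The cytokine and THP-1 columns are mostly red, with 17, 12, 18 and 23 members higher, and the column for the control surfaces has no dot.

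Among the proteases, 5 of 10 rose on the smooth surface and 9 of 10 on the fractal surface. CTSB, an abundant cysteine cathepsin, stood at 873, 907 and 907 CPM in the smooth controls and at 1685, 1621 and 1610 CPM with THP-1. It went on the fractal surface from 825, 814 and 803 CPM to 1759, 1703 and 1453 CPM. The groups did not overlap on either surface, and the log2 fold changes were 0.87 ± 0.08 (SE, edgeR adjusted p = 2.87e-09) and 1.01 ± 0.08 (edgeR adjusted p = 7.46e-11). CTSA, which protects and activates other lysosomal enzymes, rose by 0.74 ± 0.15 and 0.78 ± 0.15 on the log2 scale. CTSD, an aspartic protease, rose by 0.53 ± 0.09 and 0.84 ± 0.09. TPP1, a tripeptidyl peptidase, rose by 0.51 ± 0.16 and 0.66 ± 0.16. In fractal THP-1 replicate 3 CTSA was at 111 CPM beside 206 and 190, and TPP1 at 78.1 beside 142 and 153, so that TPP1 overlapped the fractal controls (78.3 to 80.3 CPM). Without that library the fractal THP-1 means of CTSA and TPP1 were 198 and 148 CPM, against 169 and 125 CPM with it. Both fractal calls held in every alternative run. CTSZ was not called on either surface, with 203 ± 1.497 CPM on the smooth and 213 ± 55.4 CPM on the fractal surface against 185 ± 3.15 and 190 ± 2.67 CPM in the controls.

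CTSS, a cathepsin that processes antigen in myeloid cells, was low throughout. It was at 1.76, 2.42 and 2.83 CPM in the smooth controls and at 6.81, 5.36 and 7.04 CPM with THP-1. On the fractal surface it was at 1.09, 1.88 and 1.40 CPM in controls and at 4.99, 3.90 and 4.64 CPM with THP-1. All THP-1 libraries lay above all controls of their surface, and the log2 fold changes were 1.46 ± 0.27 (edgeR adjusted p = 0.000144) and 1.61 ± 0.29 (edgeR adjusted p = 4.17e-05). Myeloid ITGB2 had a mean of 0.198 and 0.039 CPM in the smooth and fractal controls and of 22.2 and 8.61 CPM with THP-1, and LAPTM5 of 0.126 and 0.189 CPM in controls and of 13.97 and 4.78 CPM with THP-1. The part of macrophage RNA in the CTSS level was not tested.

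CTSK, CTSH, CTSL and LGMN were called on the fractal surface as well. CTSK, a collagen-degrading cathepsin, went from 1.78, 0.986 and 0.931 CPM to 4.93, 4.08 and 1.85 CPM (log2 fold change 1.58 ± 0.41, edgeR adjusted p = 0.00237). LGMN, an asparaginyl endopeptidase that trims cathepsins, went from 43.3, 38.6 and 41.5 CPM to 61.2, 57.9 and 81.4 CPM (0.70 ± 0.11, edgeR adjusted p = 6.28e-06). Without fractal THP-1 replicate 3 the THP-1 means of CTSK and LGMN were 4.50 and 59.5 CPM, against 3.62 and 66.8 CPM with it. These 2 calls held in every alternative run. The calls for CTSL and CTSH were lost when 1 library was left out. CTSL was at 68.4, 65.9 and 114 CPM with THP-1 against 60.3 to 67.8 CPM in the fractal controls, and its log2 fold change of 0.34 ± 0.14 became 0.04 without fractal THP-1 replicate 3 and 0.041 without the 2 libraries that stood apart (edgeR adjusted p = 0.684). Leaving out any 1 fractal control or fractal THP-1 replicate 3 ended its call (adjusted p 0.0788 to 0.713). CTSH, with log2 fold change 0.74 ± 0.29, lost its call without fractal control replicate 2 or 3 or fractal THP-1 replicate 1 or 3 (adjusted p 0.0578 to 0.173), where it was 0.81, 0.557, 0.675 and 0.518. Without the 2 libraries that stood apart it was 0.518 (edgeR adjusted p = 0.122).

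Of the 7 glycosidases, GAA, MAN2B1 and NEU1 rose on both surfaces and HEXA on the fractal surface. GAA, which digests glycogen in the lysosome, stood at 69.5, 71.2 and 71.1 CPM in the smooth controls and 113, 109 and 105 CPM with THP-1. It went on the fractal surface from 57.6, 58.2 and 62.6 CPM to 161, 161 and 202 CPM. Neither pair of groups overlapped, and the log2 fold change was 0.63 ± 0.10 on the smooth and 1.55 ± 0.10 on the fractal surface. Without fractal THP-1 replicate 3 the fractal THP-1 mean of GAA was 161 CPM, against 174 CPM with it, and its fractal call held in every alternative run. MAN2B1, the alpha-mannosidase of glycoprotein breakdown, rose by 0.86 ± 0.09 and 1.18 ± 0.09, and the sialidase NEU1 by 0.44 ± 0.12 and 0.61 ± 0.12. The hexosaminidase subunit HEXA rose by 0.39 ± 0.12 on the fractal surface, a call that was lost without fractal control replicate 3 or fractal THP-1 replicate 1 (adjusted p 0.0516 to 0.0928). GLA, GLB1 and GUSB were not called. GLA, the enzyme missing in Fabry disease, had means of 16.6 and 16.8 CPM in the smooth controls and smooth THP-1 libraries and of 13.9 and 12.9 CPM on the fractal surface.

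All 5 genes of lipid handling rose on the smooth surface and 4 of 5 on the fractal surface. PSAP stood at 1071, 1102 and 1105 CPM in the smooth controls and at 1510, 1418 and 1468 CPM with THP-1. Fractal libraries went from 842, 817 and 857 CPM to 2001, 1897 and 3151 CPM. The groups did not overlap on either surface, and fractal THP-1 replicate 3 was the highest of all 18 libraries. The log2 fold change was 0.42 ± 0.12 on the smooth surface and 1.49 ± 0.13 on the fractal surface, where it was 1.21 without the 2 libraries that stood apart. NPC1 and NPC2, which pass cholesterol out of the lysosome in turn, rose by 0.71 ± 0.08 and 0.53 ± 0.12 on the smooth and by 0.92 ± 0.08 and 0.61 ± 0.12 on the fractal surface. ASAH1, acid ceramidase, rose by 0.51 ± 0.09 and 0.91 ± 0.09. SMPD1, acid sphingomyelinase, rose by 0.56 ± 0.08 on the smooth surface, from 63.6, 65.1 and 63.8 CPM to 95.7, 96.2 and 92.0 CPM, and was not called on the fractal surface, at 71.3, 76.2 and 72.9 CPM in controls and 77.5, 81.5 and 75.8 CPM with THP-1.

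The membrane proteins and the pump moved less evenly. SCARB2, the receptor that carries beta-glucocerebrosidase to the lysosome, rose by 0.32 ± 0.09 on the smooth and 0.26 ± 0.09 on the fractal surface. The latter call was lost without fractal control replicate 1 or 2 or fractal THP-1 replicate 1 or 2 (adjusted p 0.0554 to 0.103). MCOLN1 rose on the smooth surface, from 10.99, 10.4 and 9.14 CPM to 15.7, 18.9 and 16.01 CPM (log2 fold change 0.73 ± 0.16), and CD63 on the fractal surface by 0.36 ± 0.10. CD63 stood there at 459, 410.2 and 584 CPM against 372 to 381 CPM in the controls, and its log2 fold change was 0.20 without the 2 libraries that stood apart, where it was still called (edgeR adjusted p = 0.00678). LAMP2, a glycoprotein needed for fusion of autophagosomes with lysosomes, fell by 0.51 ± 0.12 on the fractal surface, from 377, 384 and 382 CPM to 313, 301 and 187 CPM. Its drop was 0.32 on the log2 scale without the 2 libraries that stood apart (log2 fold change -0.318) and was called there too. LAMP1 was not called on either surface, at 429 ± 3.94 and 390 ± 58.0 CPM with THP-1 against 410 ± 12.2 and 382 ± 3.76 CPM in the controls.

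In the v-ATPase, the subunit ATP6V0D1 rose on the smooth surface from 35.1, 39.6 and 40.02 CPM to 52.7, 54.4 and 52.8 CPM (log2 fold change 0.48 ± 0.11). On the fractal surface it stood at 44.4, 41.7 and 45.4 CPM in controls and 44.5, 46.6 and 34.0 CPM with THP-1 and was not called. ATP6V1H, a subunit of the cytosolic sector, fell by 0.44 ± 0.10 on the fractal surface (log2 fold change -0.441), and the accessory subunit ATP6AP1 rose there by 0.24 ± 0.08, a call lost without fractal control replicate 3 (adjusted p = 0.0638).

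Of the autophagosome genes, GABARAPL1 and MAP1LC3C rose on both surfaces. GABARAPL1 went from 45.2, 48.5 and 43.4 CPM to 54.6, 58.5 and 58.9 CPM on the smooth surface and from 38.2, 39.6 and 40.2 CPM to 113, 109 and 104 CPM on the fractal surface. The log2 fold changes were 0.33 ± 0.08 (edgeR adjusted p = 0.00163) and 1.47 ± 0.08 (edgeR adjusted p = 5.55e-14), with no overlap of groups. MAP1LC3C, an LC3 form used in selective autophagy of bacteria and other cargo, had 0, 2 and 0 counts in the smooth controls and 46, 48 and 40 with THP-1. That is 134 against 2 counts, a ratio of 62.9 after scaling (95% counting interval 17.1 to 524). The fractal controls had no count and the THP-1 libraries 122, 98 and 82 counts, at least 123-fold higher if the control group as a whole is set at a floor of 3 counts. In the cytokine libraries it had 4 counts, all in smooth cytokines replicate 2, and none on the fractal surface. The widely expressed family member MAP1LC3B fell on the smooth surface, from 140, 142 and 143 CPM to 100.4, 107 and 102 CPM (log2 fold change -0.46 ± 0.09). It was not called on the fractal surface, at 127, 125 and 124 CPM in controls and 121, 112 and 96.6 CPM with THP-1. WIPI1, which binds the phosphoinositide on nascent autophagosome membranes, rose by 0.37 ± 0.11 on the fractal surface.

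TFEB, TFE3 and MITF were not among the genes that rose with THP-1. TFEB fell on the smooth surface, from 16.3, 17.2 and 18.6 CPM to 13.0, 10.8 and 15.8 CPM (log2 fold change -0.40 ± 0.14, edgeR adjusted p = 0.0331). That call was lost without smooth control replicate 2 or 3 or smooth THP-1 replicate 1 or 2 (adjusted p 0.0675 to 0.196) and with no filter on low counts (0.0549). On the smooth surface the TPP1 call was lost without smooth control replicate 2 or 3 or smooth THP-1 replicate 1 (adjusted p 0.0528 to 0.0611). MITF stood at 6.70 ± 1.02 CPM in the smooth controls and 6.49 ± 1.46 CPM with THP-1, and TFE3 at 104 ± 3.88 and 109 ± 1.97 CPM. These are levels of RNA. The proteins' place in the cell, through which mTORC1 acts on them, was not measured.

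**Figure D2:**
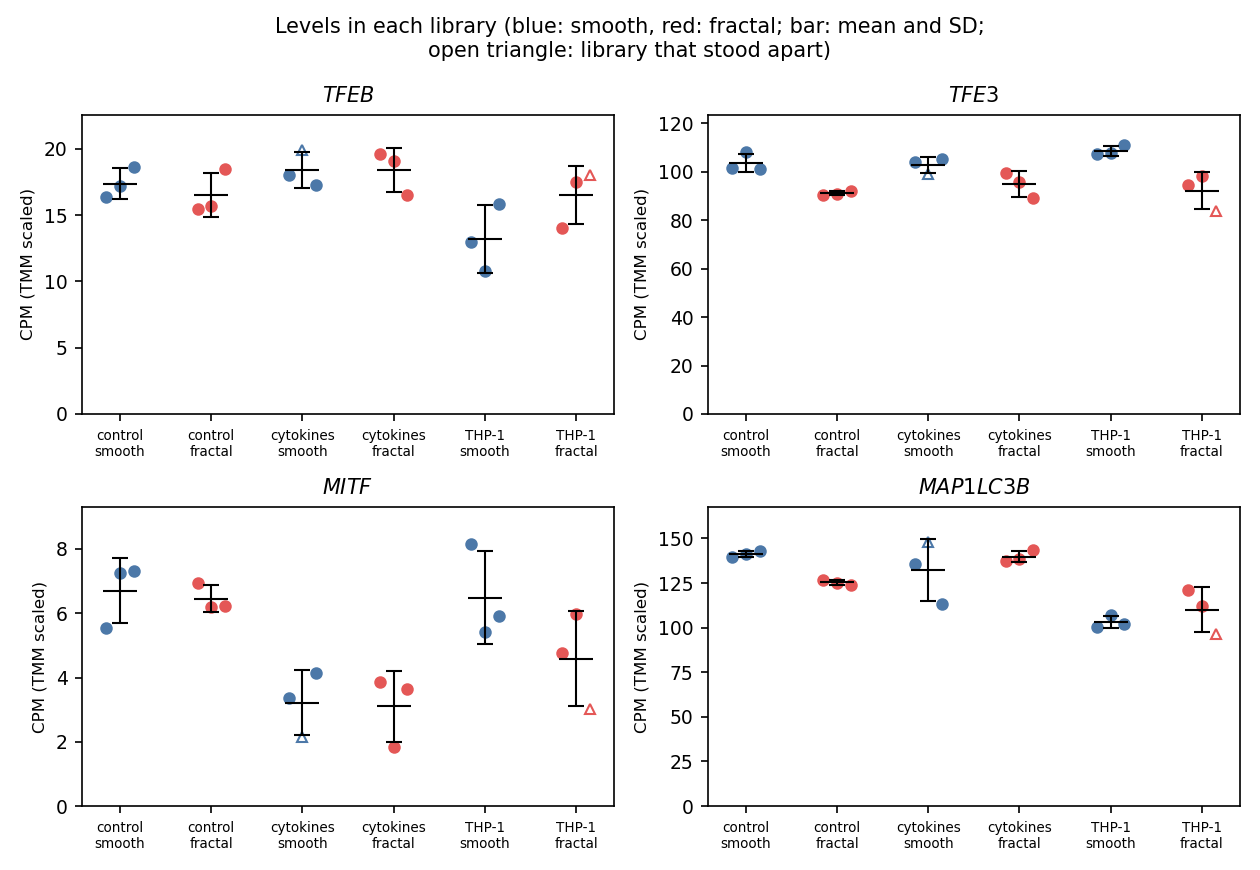
CPM (TMM scaled, y axis from 0) of TFEB, TFE3, MITF and MAP1LC3B in each of the 18 libraries, by group. Blue is smooth, red is fractal, bars are mean and SD, and open triangles are the 2 libraries that stood apart. MITF is lower in the cytokine groups (means 3.22 and 3.11 CPM) than in the controls (6.70 and 6.46 CPM), and MAP1LC3B is lowest in the smooth THP-1 group (103 CPM).

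Under THP-1 the surfaces themselves differed. Compared with smooth THP-1, 9 of 37 members were higher on the fractal surface (24.3%) and 3 were lower (8.11%), where 8.25% of all genes were higher and 11.7% lower. The share of lower members was near that of all genes. The median log2 fold change was 0.097, beside -0.004 over all genes. GABARAPL1 was at 113, 109 and 104 CPM on the fractal surface against 54.6, 58.5 and 58.9 CPM on the smooth surface, with no overlap and a log2 difference of 0.92 ± 0.08 (edgeR adjusted p = 1.72e-09). GAA differed by 0.67 ± 0.10, LGMN by 0.68 ± 0.11 and PSAP by 0.68 ± 0.12, again without overlap. Without the 2 libraries that stood apart these were 0.55, 0.52 and 0.41, and each was still called. The summed macrophage markers were at 30.2 to 35.8 CPM on the fractal and 67.1 to 72.4 CPM on the smooth surface. Of 12 tested markers of that list, 5 were called lower on the fractal surface (41.7%) and 0 higher. Not all had lower means there: CD14 was at 5.59 CPM on smooth and 6.77 CPM on fractal, and CD33 at 0.117 and 0.503 CPM. The part of macrophage RNA in these differences was not tested.

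MAP1LC3C, at 7.16, 5.79 and 6.91 CPM on the fractal and 2.68, 2.74 and 2.41 CPM on the smooth surface, differed by 1.34 ± 0.45 on the log2 scale without overlap (edgeR adjusted p = 0.0383). Its call was lost without any 1 of the smooth THP-1 libraries or without fractal THP-1 replicate 1 or 2 (adjusted p 0.0604 to 0.116). ASAH1, NPC1 and WIPI1 were higher on the fractal surface by 0.31 ± 0.08, 0.26 ± 0.08 and 0.37 ± 0.11, and SMPD1, ATP6V0D1 and TFE3 were lower by 0.27, 0.35 and 0.23 (log2 fold changes -0.274, -0.349 and -0.235). CTSL was higher by 0.47 ± 0.14, and by 0.17 without the 2 libraries that stood apart, where it was not called (adjusted p = 0.11), and neither was ATP6V0D1 (0.0693). Each of these 7 calls was lost without 1 library or another. For ASAH1 these were smooth THP-1 replicate 2 and fractal THP-1 replicate 2, for NPC1 smooth THP-1 replicates 2 and 3, and for SMPD1 smooth THP-1 replicates 1 and 2 (adjusted p 0.0552 to 0.0874). For WIPI1 they were replicates 1 and 2 of each THP-1 group, and for ATP6V0D1, TFE3 and CTSL any smooth THP-1 replicate or fractal THP-1 replicate 3 (adjusted p 0.0521 to 0.153). The count of 12 fell to 7 without smooth THP-1 replicate 1, to 4 without smooth THP-1 replicate 2, and to 5 when only these 6 libraries were fitted. In the same order, 5.71%, 5.03% and 3.9% of all genes were higher and 8.68%, 8.97% and 5.53% lower in these fits.

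**Figure D3:**
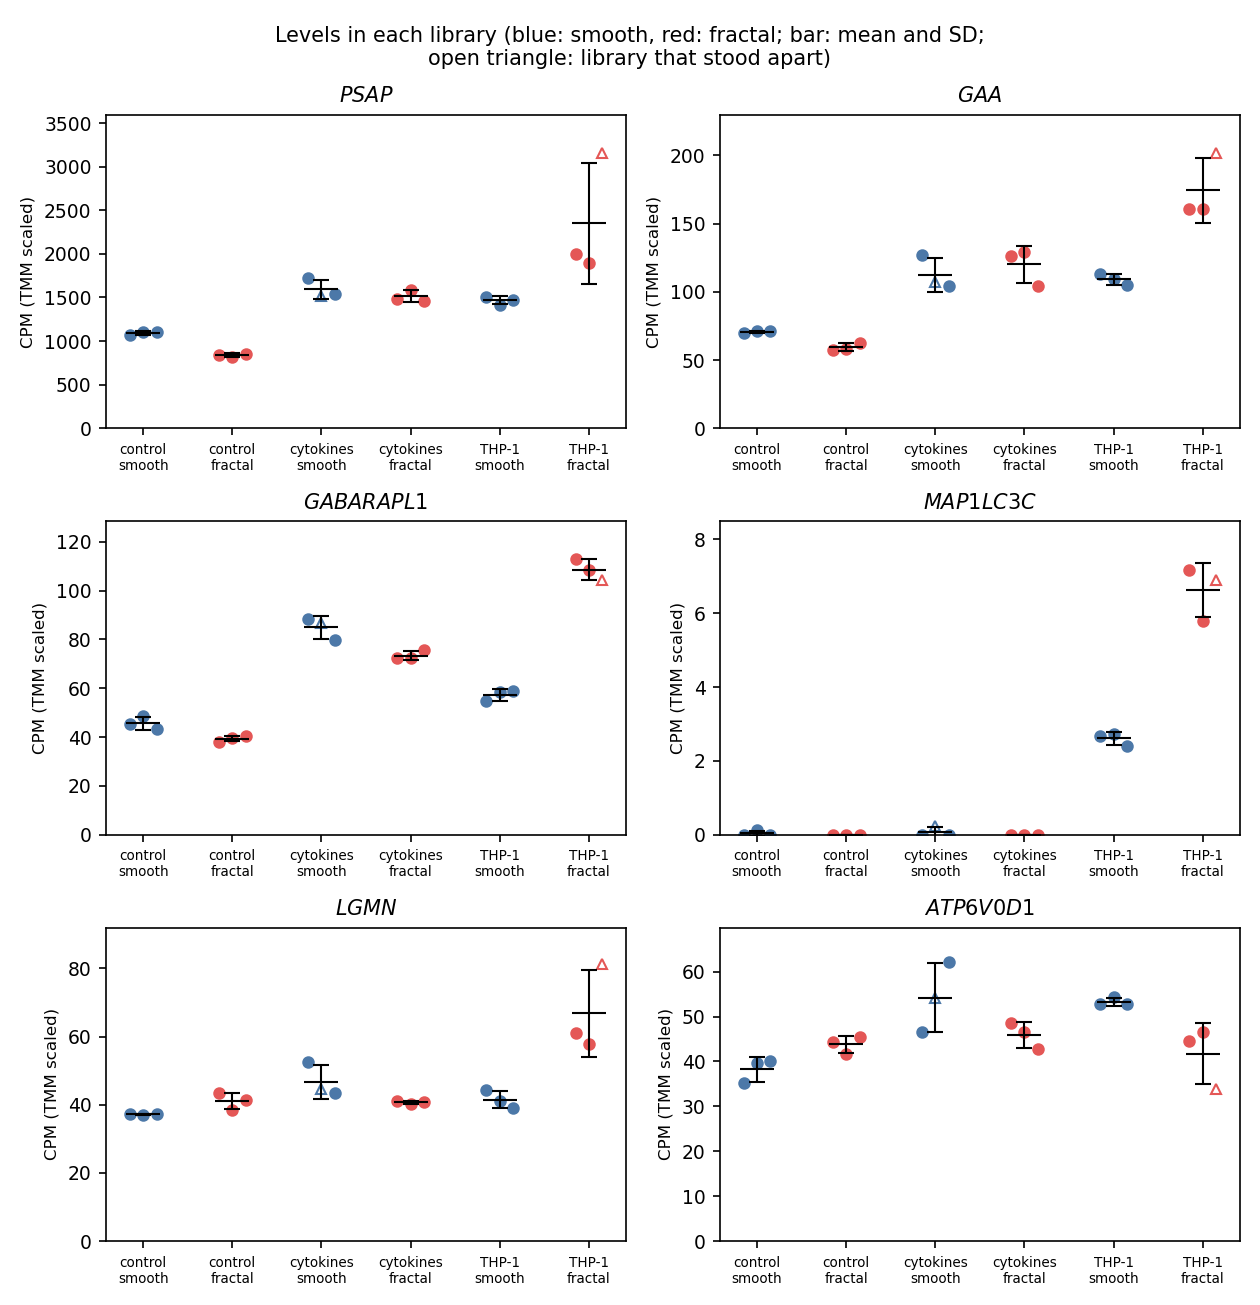
CPM (TMM scaled, y axis from 0) of 6 members in each of the 18 libraries, by group. Blue is smooth, red is fractal, bars are mean and SD, and open triangles are the 2 libraries that stood apart. GABARAPL1, PSAP, GAA, LGMN and MAP1LC3C are highest in the fractal THP-1 group, whereas ATP6V0D1 is higher on smooth (53.3 CPM) than on fractal THP-1 (41.7 CPM).

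Whether the response to THP-1 differed between surfaces was tested by the interaction, the fractal response minus the smooth response. It passed the threshold with a larger response on the fractal surface in 5 members (13.5%) and a smaller one in 2 (5.41%), where 5.35% and 7.88% of all genes did. GABARAPL1 had the interaction of smallest p, 1.14 ± 0.11 on the log2 scale (edgeR adjusted p = 6.01e-08), followed by GAA at 0.92 ± 0.14 (edgeR adjusted p = 3.56e-05) and PSAP at 1.06 ± 0.17 (edgeR adjusted p = 0.000142). LGMN at 0.54 ± 0.15 and ASAH1 at 0.40 ± 0.12 also responded more on the fractal surface. SMPD1 at -0.47 ± 0.12 and ATP6V0D1 at -0.55 ± 0.16 responded less there. The mean PSAP level was 839 ± 20.2 CPM in the fractal and 1093 ± 19.0 CPM in the smooth controls. The count of 7 was 13 without fractal THP-1 replicate 3 and 15 without both libraries that stood apart. Calls over all genes were also more frequent in these fits. In the first, 7.68% of all genes had a larger and 11.9% a smaller response on the fractal surface, and in the second 8.81% and 13.2%. The interactions of GABARAPL1, GAA, PSAP and SMPD1 were past the threshold in every alternative run.

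**Figure D4:**
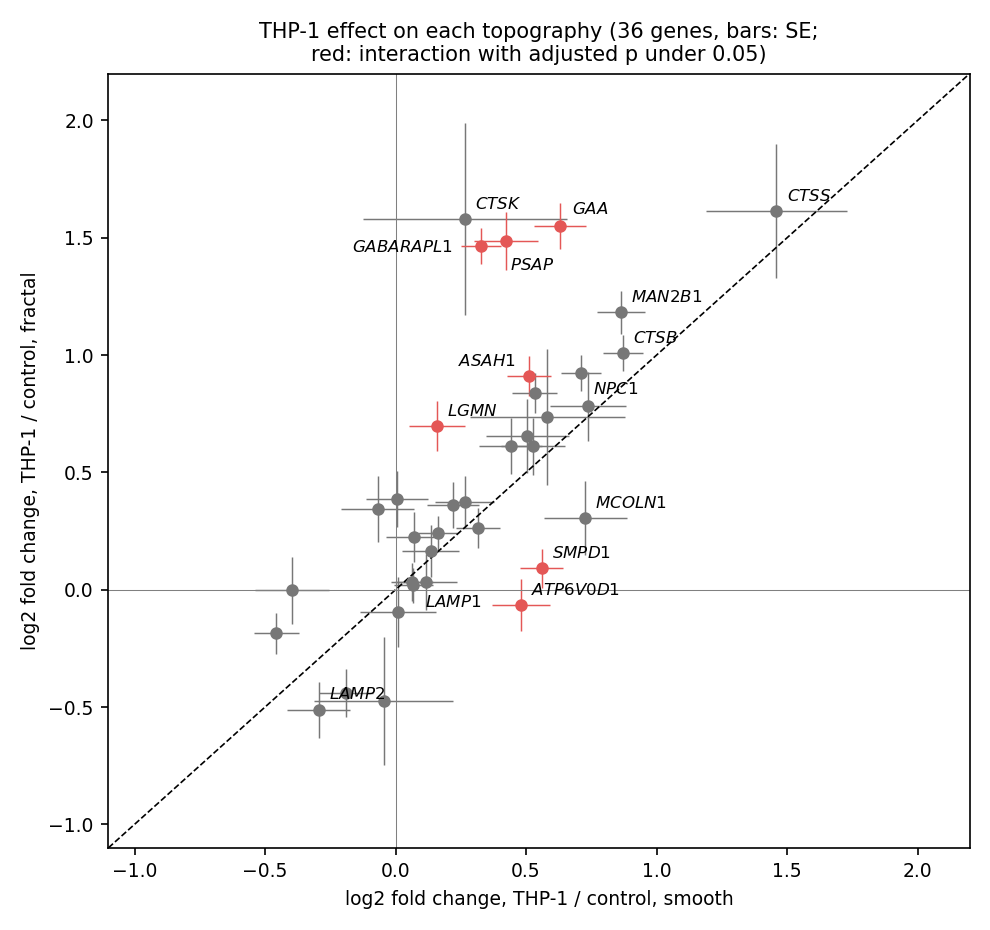
Log2 fold change of THP-1 against control on the smooth (x axis) and the fractal surface (y axis) for 36 tested members, MAP1LC3C left out, with SE as bars. On the dashed line the responses are equal. GABARAPL1, PSAP and GAA lie far above it (1.47, 1.49 and 1.55 on y, 0.33, 0.42 and 0.63 on x), and SMPD1 and ATP6V0D1 lie below it.

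With cytokines 17 of 37 members rose on the smooth surface (45.9%) and 1 fell (2.7%), where 13.2% of all genes rose and 12.4% fell. On the fractal surface 12 rose (32.4%) and 1 fell (2.7%), where 13% rose and 12.9% fell. The median log2 fold change of the members was 0.30 and 0.156, beside 0.007 and 0.026 over all genes. These comparisons share their control libraries with those of THP-1, so the values are given side by side and no likeness is drawn from them. Without the 2 libraries that stood apart, 21 members rose and 2 fell on the smooth surface and 20 rose and 1 fell on the fractal surface. In that fit 17.3% of all genes rose and 16.9% fell on the smooth surface, and 17.6% rose and 18.1% fell on the fractal surface.

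GABARAPL1 rose by nearly the same amount on both surfaces, from 45.7 ± 2.60 to 84.9 ± 4.66 CPM on the smooth and from 39.3 ± 1.06 to 73.4 ± 2.03 CPM on the fractal surface. Its log2 fold changes were 0.89 ± 0.08 (edgeR adjusted p = 2.11e-09) and 0.90 ± 0.08 (edgeR adjusted p = 2.93e-09). PSAP stood at 1720, 1519 and 1535 CPM on the smooth and at 1486, 1589 and 1460 CPM on the fractal surface, all above their controls, with log2 fold changes of 0.54 ± 0.12 and 0.85 ± 0.12. GAA rose by 0.67 ± 0.10 and 1.01 ± 0.10, CTSA by 0.56 ± 0.15 and 0.68 ± 0.15, ASAH1 by 0.55 ± 0.09 and 0.46 ± 0.09, and ATP6AP1 by 0.61 ± 0.08 and 0.53 ± 0.07. SMPD1 rose by 0.53 ± 0.08 and 0.23 ± 0.08, and MAN2B1 by 0.56 ± 0.09 and 0.27 ± 0.09. The fractal calls for MAN2B1 (without any 1 of the 6 libraries, adjusted p 0.062 to 0.205) and SMPD1 (without any of these 6 but fractal cytokines replicate 3, 0.0645 to 0.278) were lost.

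Called on the smooth but not on the fractal surface were NEU1, NPC1, LGMN, SCARB2, MCOLN1, ATP6V0D1, WIPI1 and CTSS. ATP6V0D1 went from 35.1, 39.6 and 40.02 CPM to 46.5, 54.2 and 62.1 CPM (log2 fold change 0.51 ± 0.11), whereas on the fractal surface it stood at 43.8 ± 1.91 CPM in controls and 45.9 ± 2.95 CPM with cytokines and was not called. NEU1 rose by 0.42 ± 0.12, NPC1 by 0.25 ± 0.08, LGMN by 0.33 ± 0.11, SCARB2 by 0.32 ± 0.09 and MCOLN1 by 0.48 ± 0.16. The last 5 calls were near the threshold, and leaving out 1 library ended them while the log2 fold changes stayed between 0.212 (NPC1) and 0.488 (MCOLN1). They were lost without smooth cytokines replicate 3 for NEU1 (adjusted p = 0.0673), replicate 1 for SCARB2 (0.0617), replicate 1 or smooth control replicate 1 or 3 for NPC1 (0.0688 to 0.0852), replicate 1 or any smooth control for LGMN (0.0691 to 0.184), and replicate 2 or 3 or smooth control replicate 2 or 3 for MCOLN1 (0.071 to 0.127).

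Called on the fractal but not on the smooth surface were CTSK, CTSB and HEXA. CTSK went from 1.78, 0.986 and 0.931 CPM to 4.06, 3.81 and 3.44 CPM (log2 fold change 1.61 ± 0.41, edgeR adjusted p = 0.00446), with all 3 cytokine libraries above all 3 controls. CTSB rose by 0.31 ± 0.08 and HEXA by 0.46 ± 0.12, the latter not without fractal cytokines replicate 3 (adjusted p = 0.0504). MITF was the member that fell with cytokines, on both surfaces. It went from 5.53, 7.26 and 7.32 CPM to 3.35, 2.15 and 4.15 CPM on the smooth and from 6.94, 6.199 and 6.23 CPM to 3.86, 1.84 and 3.63 CPM on the fractal surface. The groups did not overlap, and its log2 fold changes were -1.05 ± 0.28 (edgeR adjusted p = 0.00616) and -1.06 ± 0.28 (edgeR adjusted p = 0.00645). TFEB stood at 18.4 CPM on average in both cytokine groups against 17.4 and 16.5 CPM in the controls and was not called, nor was TFE3. In all, 16 members were called on neither surface with cytokines, among them CTSZ, at 227 ± 10.98 and 228 ± 17.9 CPM, and both LAMP1 and LAMP2.

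CTSS rose with cytokines on the smooth surface and was not called on the fractal surface. With cytokines it was at 4.76, 4.41 and 6.83 CPM on the smooth surface, above its controls at 1.76 to 2.83 CPM (log2 fold change 1.20 ± 0.27, edgeR adjusted p = 0.00166). On the fractal surface it was at 0.865, 0.860 and 1.46 CPM, within reach of its controls at 1.09 to 1.88 CPM, and was not called. The surfaces thus differed under cytokines by -2.32 ± 0.30 on the log2 scale, 50 against 277 counts in all, without overlap (edgeR adjusted p = 9.28e-06). That call held in every alternative run. The interaction was -1.66 ± 0.43 (edgeR adjusted p = 0.0313) and was lost without smooth control replicate 1 or 2, fractal control replicate 2 or 3, smooth cytokines replicate 3, or fractal cytokines replicate 1 or 2 (adjusted p 0.0616 to 0.134). The labels name no macrophages for the cytokine libraries. TYROBP had no count in them, and the 22 summed macrophage markers came to 5.85 to 7.92 CPM on the smooth and 3.25 to 5.99 CPM on the fractal surface. The marker CD14 of that list, a receptor for bacterial lipopolysaccharide, differed in the same direction as CTSS. Its mean was 0.795 CPM in the smooth controls, 2.79 CPM with cytokines on the smooth surface and 1.16 CPM with cytokines on the fractal surface. It rose with cytokines on the smooth surface (log2 fold change 1.81 ± 0.36) and was lower on fractal than on smooth under cytokines (-1.26 ± 0.34, edgeR adjusted p = 0.0312), and its part in the CTSS result was not tested. CD14 was the only 1 of the list's 12 tested markers called in either comparison. The median log2 fold change of these markers between the surfaces under cytokines was 0.0. FCER1G went the other way, at a mean of 0.329 CPM on smooth and 0.652 CPM on fractal, and CORO1A was at 2.04 and 2.06 CPM.

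WIPI1 had the same direction. It was at 34.9, 30.4 and 33.6 CPM with cytokines on the smooth surface, above the controls at 20.5 to 23.6 CPM (log2 fold change 0.59 ± 0.11), and at 22.8, 23.9 and 27.6 CPM on the fractal surface, among the controls at 24.9 to 28.1 CPM. The fractal response minus the smooth response was -0.68 ± 0.16 (edgeR adjusted p = 0.0165), and the surfaces differed under cytokines by -0.41 ± 0.11. CTSD went the other way, with log2 fold changes of 0.43 ± 0.09 on the smooth and 0.89 ± 0.09 on the fractal surface and an interaction of 0.45 ± 0.12 (edgeR adjusted p = 0.0404). Its level went from 76.46 ± 3.40 to 103.4 ± 5.21 CPM on the smooth and from 64.15 ± 1.465 to 118.5 ± 16.57 CPM on the fractal surface. In the main run CTSD was not called between the surfaces, either in the controls or under cytokines. The WIPI1 interaction was lost without smooth control replicate 2 or fractal control replicate 3 (adjusted p 0.0616 to 0.0628), and the CTSD interaction without any control or any but 2 of the cytokine libraries (smooth cytokines replicate 2 and fractal cytokines replicate 3), with adjusted p 0.0778 to 0.179.

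These were the 3 member interactions with cytokines, 1 higher (2.7%) and 2 lower (5.41%), where 1.28% and 1.43% of all genes were called. The count fell to 0 without smooth control replicate 2 or fractal control replicate 3, was 1 without smooth control replicate 1, fractal control replicate 2, smooth cytokines replicate 3, or fractal cytokines replicate 1 or 2, and was 11 without the 2 libraries that stood apart. In that last fit 4.16% of all genes were called higher and 4.66% lower.

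**Figure D5:**
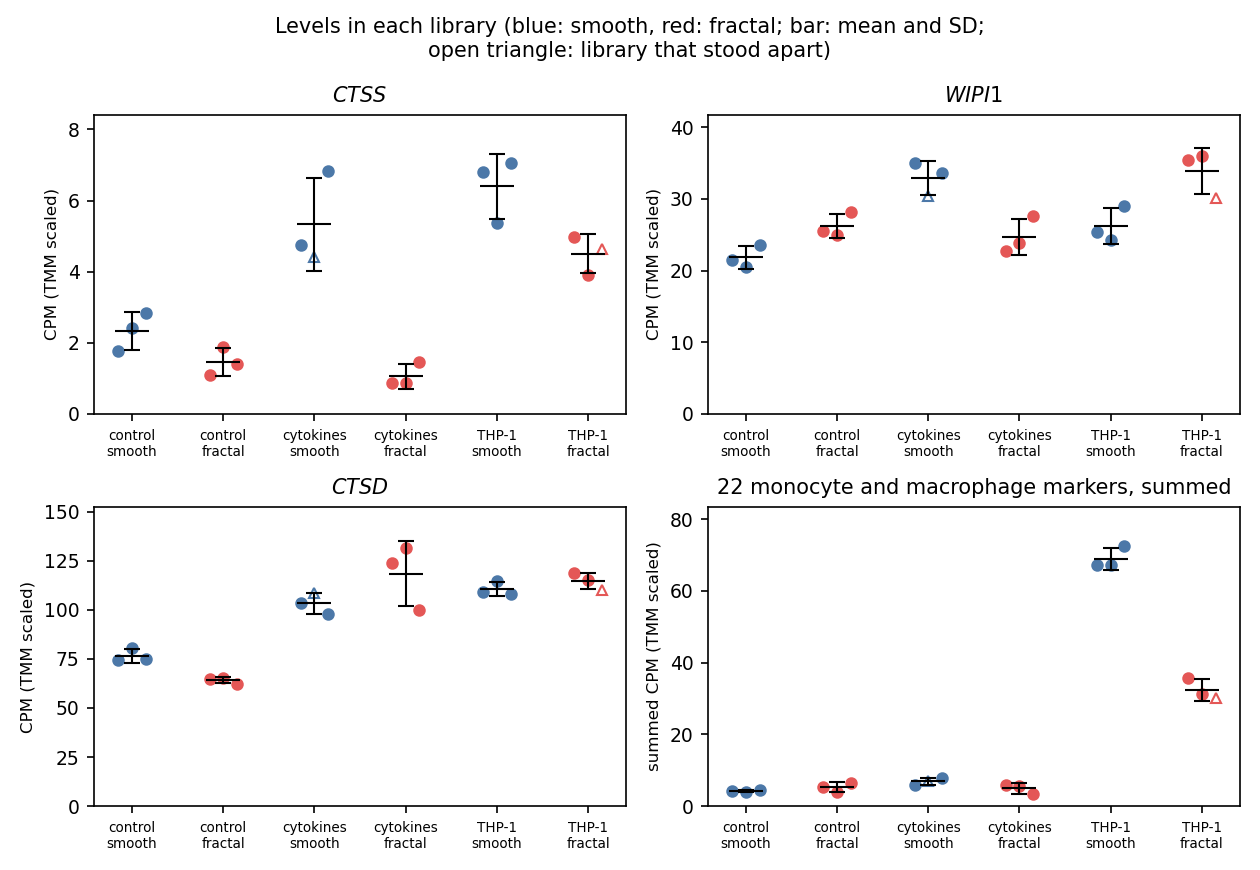
CPM (TMM scaled, y axis from 0) of CTSS, WIPI1 and CTSD and the summed CPM of 22 monocyte and macrophage markers in each of the 18 libraries, by group. Blue is smooth, red is fractal, bars are mean and SD, and open triangles are the 2 libraries that stood apart. CTSS is at 4.41 to 6.83 CPM with cytokines on the smooth surface and at 0.860 to 1.46 CPM on the fractal surface, while the marker sum is at least 30.2 CPM in the THP-1 groups and at most 7.92 CPM in the others.

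Under cytokines 3 of 37 members were lower on the fractal than on the smooth surface (8.11%) and none higher, where 2.74% of all genes were lower and 1.72% higher. They were CTSS, WIPI1 and MAN2B1, the last at 62.9, 67.6 and 63.0 CPM against 87.9, 76.0 and 85.4 CPM (log2 fold change -0.37 ± 0.09, edgeR adjusted p = 0.0152). The median over the members was -0.044, beside 0.002 over all genes. CTSS alone remained called without smooth cytokines replicate 1 or 3 or fractal cytokines replicate 1, which took the count to 1. In the same order, 1.32%, 1.17% and 0.934% of all genes were higher and 2.55%, 2.12% and 2.01% lower in these fits. WIPI1 lost its call without replicate 1 or 3 of smooth cytokines or 1 or 2 of fractal cytokines (adjusted p 0.0855 to 0.147), and MAN2B1 without replicate 1 or 3 of either group (adjusted p 0.053 to 0.0655).

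In the controls no member differed between the surfaces by edgeR, where 0.651% of all genes were higher and 1.12% lower on the fractal surface. DESeq2 also called 0 members, and 10 of 37 had an unadjusted p under 0.05. The median over the members was -0.072, beside -0.007. PSAP was at 842, 817 and 857 CPM on the fractal against 1071, 1102 and 1105 CPM on the smooth surface, groups that do not overlap, and its adjusted p was 0.138. When the 2 libraries that stood apart, which are not controls, were left out of the fit, 4 members were lower on the fractal surface. They were PSAP (edgeR adjusted p = 4.48e-07), CTSD (0.0204), GAA (0.0275) and TFE3 (0.0494), named after their values were seen. In that fit 3.48% of all genes were higher and 3.69% lower. When only the 6 control libraries were fitted, 5 members were higher and 10 lower, where 10% of all genes were higher and 9.41% lower.

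The other genes of the pathway, 104 tested of 109 listed, included risers and fallers in each treatment. With THP-1, 33 rose and 14 fell on the smooth surface and 38 rose and 20 fell on the fractal surface. These are 31.7% and 13.5%, and 36.5% and 19.2%, where 17.3% and 17.7%, and 25% and 25.5%, of all genes rose and fell. With cytokines, 37 rose (35.6%) and 7 fell (6.73%) on the smooth surface, where 13.2% and 12.4% of all genes did, and 27 rose (26%) and 15 fell (14.4%) on the fractal surface, where 13% and 12.9% did. By number of genes, the list with the most risers was the hydrolases, but the lists differ in length. Of 25 other hydrolases and activators, 12 and 11 rose with THP-1 on the smooth and fractal surfaces (48% and 44%). With cytokines 15 and 10 rose (60% and 40%). In the same order, 2, 5, 2 and 3 fell (8%, 20%, 8% and 12%). By share, the genes that control mTORC1 and TFEB were close with THP-1, where 44.4% rose on each surface. FUCA1, the lysosomal fucosidase, went from 53.7 to 141 CPM on the smooth and from 43.9 to 236 CPM on the fractal surface with THP-1 (log2 fold changes 1.40 ± 0.08 and 2.43 ± 0.09, interaction 1.03 ± 0.12, edgeR adjusted p = 8.35e-07). CTSF, a cysteine cathepsin, rose by 2.80 ± 0.18 with THP-1 on the fractal surface, with an interaction of 1.72 ± 0.26. CTSV, a cathepsin close to CTSL, fell, with log2 fold changes of -1.195 and -2.558.

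The cystatin CST3, a secreted inhibitor of cysteine cathepsins, rose with THP-1 by 0.78 ± 0.17 on the smooth and 1.24 ± 0.17 on the fractal surface. Only 2 of 5 cystatins could be tested. With THP-1, 1 of these 2 rose and 0 fell on the smooth surface, and 1 rose and 1 fell on the fractal surface. Of 28 genes of the core autophagy machinery, 4 rose and 4 fell with THP-1 on the smooth surface, 8 rose and 4 fell on the fractal surface, and with cytokines 5 rose and 1 fell and 3 rose and 4 fell. The shares that rose with THP-1, 14.3% and 28.6%, were near the 17.3% and 25% of all genes. On each surface 14.3% fell with THP-1, where 17.7% and 25.5% of all genes did. With cytokines 17.9% rose and 3.57% fell on the smooth surface, where 13.2% and 12.4% of all genes did. On the fractal surface 10.7% rose and 14.3% fell with cytokines, near the 13% and 12.9% of all genes. ULK1, the kinase that starts autophagy, rose in all 4 comparisons, by 0.73 ± 0.10 and 0.80 ± 0.10 with THP-1 and by 0.51 ± 0.10 and 0.67 ± 0.10 with cytokines. Its relative ULK2 fell by 0.56 and 0.68 with THP-1 (log2 fold changes -0.562 and -0.676). Among 10 autophagy receptors, SQSTM1, also called p62, rose with THP-1 by 0.50 ± 0.15 and 0.85 ± 0.15, while TAX1BP1 fell by 0.48 and 0.35 (log2 fold changes -0.483 and -0.345). In all, 1 receptor rose (10%) and 3 fell on the smooth and 4 rose (40%) and 3 fell on the fractal surface with THP-1.

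Of 13 further pump subunits, 4 rose and 2 fell with THP-1 on the smooth and 3 rose and 2 fell on the fractal surface. The shares that rose were 30.8% and 23.1%, the latter near the 25% of all genes. Of 8 genes that sort enzymes to the lysosome, 3 rose and 1 fell and 3 rose and 2 fell (37.5% rose on each surface), among them the sorting receptor SORT1, which rose with THP-1 by 0.81 ± 0.09 and 0.93 ± 0.09 and fell with cytokines by 0.51 and 0.46 (log2 fold changes -0.512 and -0.459). Of 18 tested genes that control mTORC1 and TFEB, 8 rose and 2 fell on the smooth and 8 rose and 3 fell on the fractal surface with THP-1 (44.4% rose on each). FLCN, which lets mTORC1 hold TFEB in the cytoplasm, rose on the fractal surface by 0.87 ± 0.11, and SESN2, an inhibitor of mTORC1, fell there by 1.22 on the log2 scale (log2 fold change -1.219).

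Read by promoter, 4 of the 5 tested members with TCACGTGA rose with THP-1 on the smooth surface (CTSA, GAA, MCOLN1 and ATP6V0D1), as did 10 of 23 members in the table without it. With THP-1 on the fractal surface 2 of 5 (CTSA and GAA) and 14 of 23 rose. With cytokines 4 of 5 and 9 of 23 rose on the smooth surface and 2 of 5 and 5 of 23 on the fractal surface. Of all genes tested, 17.3% and 25% rose with THP-1 and 13.2% and 13% with cytokines on the smooth and fractal surfaces. None of the 5 fell. Of the 23, 2 fell with THP-1 on the smooth surface, 0 with THP-1 on the fractal surface and 1 with cytokines on each surface. In the same order, 17.7%, 25.5%, 12.4% and 12.9% of all genes fell. Of the 5, LAMP1 was the one called in none of these treatment comparisons. GABARAPL1 and MAP1LC3C are among the 10 and 14 of these 23 members that rose with THP-1. Members with no promoter in the table, among them PSAP and CTSB, are in neither count. These counts describe 5 genes, and the part of the motif in the responses was not tested.

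Some of these values carry the limits of counting without strand or over exons shared with another gene. Exons of 13 members overlap a gene on the opposite strand, and 11 overlap another protein-coding gene, among them CTSA (PLTP and NEURL2), NPC1 (RMC1), NPC2 (ISCA2), WIPI1 (ARSG), MAP1LC3B (FBXO31) and MCOLN1 (PNPLA6). Where the genes lie on opposite strands, reads cannot be assigned to 1 gene of the pair without strand. PNPLA6 lies on the same strand as MCOLN1, as do the overlapping coding genes of CTSD, GLB1, HEXA and MAN2B1. Keeping strand would not separate those. CLN3, whose exons overlap APOBR and AC138894.1, reached at most 0.486 CPM on average in any group, and whether reads shared with them were counted is not given in the sources used here. MAP1LC3B has a near-identical copy, MAP1LC3B2, with 654 counts in all libraries against 37583, and reads common to both are uncertain.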

How the data were processed

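RNA from 18 libraries in 6 groups of 3 was sequenced without strand as paired reads after poly-T selection, per the labels' protocols. The authors deposited raw read counts per gene. Listed in the submitters' processing notes are featureCounts 1.5.0-p3, HISAT2 2.0.5 and CASAVA, with GRCh38 as the build. The counter's settings are not given in the sources used here. No column of the table belonged to a sample outside the series.

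The members and lists were chosen with earlier results of these data known. Samples were grouped by their labels. Part of a marker list is not reported here. Counts were scaled by TMM and tested with edgeR 4.0.16 (R 4.3.3) by the robust quasi-likelihood F-test on 16129 genes kept by filterByExpr (minimum count 10), with 1 mean per group over all 18 libraries. Changes were called at a Benjamini-Hochberg adjusted p under 0.05 over all genes tested within a comparison. Contrasts were fractal against smooth, treatment against control, and their interactions. All members are accounted for, and other pathway genes are named by adjusted p, up to 3 per list and direction in each comparison. The fit was tested on simulated data.

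Alternatives were DESeq2 1.42.0, RLE and upper-quartile scaling, other filters on low counts, fits on the compared groups alone, a replicate block and leaving out each library. Leaving out the 2 libraries that stood apart was chosen after seeing the data. Library totals of 11488204 to 21264180 counts limit what can be said of genes with few counts. Read counts without molecular identifiers give intervals and floors for counting error only. Plots and tables used Python 3.11.15, pandas 2.3.3, scipy 1.17.1 and matplotlib 3.10.9.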

Additional observations from a re-analysis of the deposited data

Results flagged for a closer look

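In 10 cases a member's response to treatment differed between the fractal and the smooth surface by the interaction test (edgeR, adjusted over all genes). Values are the fractal response minus the smooth response, on the log2 scale.

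Under THP-1 the response was larger on the fractal surface for GABARAPL1 (1.14 ± 0.11, SE), GAA (0.92 ± 0.14), PSAP (1.06 ± 0.17), LGMN (0.54 ± 0.15) and ASAH1 (0.40 ± 0.12), and smaller for SMPD1 (-0.47 ± 0.12) and ATP6V0D1 (-0.55 ± 0.16). Without the 2 libraries that stood apart, PSAP was at 0.79, GAA at 0.80 and LGMN at 0.37. The LGMN call was lost without fractal control replicate 2 or smooth THP-1 replicate 3 (adjusted p 0.0564 to 0.0629), and the ATP6V0D1 call without smooth control replicate 1 or fractal control replicate 3 (0.0509 to 0.0656). The ASAH1 call was lost without any fractal control, smooth control replicate 1 or 3, smooth THP-1 replicate 2, or fractal THP-1 replicate 1 or 2 (0.0502 to 0.0937). The summed macrophage markers were lower in the fractal than in the smooth THP-1 libraries, and their part in these differences was not tested.

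Under cytokines the response was larger on the fractal surface for CTSD (0.45 ± 0.12) and smaller for CTSS (-1.66 ± 0.43) and WIPI1 (-0.68 ± 0.16). Without the 2 libraries that stood apart these were 0.49, -1.79 and -0.73.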

How the results depend on the processing

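Of 101 calls of members over the 9 comparisons, 70 were past the threshold under every alternative run and 0 changed direction. DESeq2, RLE scaling and a filter at 1 CPM ended no call. Upper-quartile scaling ended 1 (TFE3), no filter 8, fitting only the compared groups 10, and leaving out the 2 libraries that stood apart 4. Leaving out single libraries ended 113 of 666. The cause was not tested.

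For the surfaces under control the count of members called went from 0 to 1 with no filter, 4 without the libraries that stood apart and 15 with only the compared groups. Over all genes tested the same fits called 286 of 16129, 424 of 33741, 1188 of 16569 and 2755 of 14187. Fitting only the compared groups gave 5 for the surfaces under THP-1, 21 for cytokines on the fractal surface and 5 for the cytokine interaction. Without the libraries that stood apart these last 2 became 21 and 11, and the THP-1 interaction 15. Over all genes, the fits on the compared groups called 1412 of 14983, 5865 of 14294 and 983 of 15203, in that order. The main run called 3220, 4167 and 436 of 16129. Without the libraries that stood apart, 5914, 1461 and 3642 of 16569 genes were called, the last against 2134 in the main run. Leaving out 1 library gave 0 to 0 for the surfaces under control, 1 to 3 under cytokines and 4 to 12 under THP-1. It gave 15 to 17 and 11 to 11 for cytokines, and 18 to 20 and 21 to 26 for THP-1, on the smooth and fractal surfaces. For the interactions it gave 0 to 3 (cytokines) and 5 to 13 (THP-1).

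The replicate numbers gave no sign of pairing between libraries: none of 45 same-numbered pairs correlated above 0.1 (-0.067 to 0.064). With 3 libraries per group this cannot show whether cultures or batches were shared. With the replicate block the counts were 0, 3 and 13 for the surfaces under control, cytokines and THP-1, 18 and 13 for cytokines, 20 and 23 for THP-1 on the smooth and fractal surfaces, and 3 and 7 for the interactions. It ended the calls for CTSH and CTSL. Low counts limit what can be said of CTSH, CTSK, CTSS, MITF, MAP1LC3C and CLN3.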
